A study of Mus musculus with 8 samples.

Results

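The natriuretic peptide genes measured in the mouse aorta were the 3 peptides Nppa, Nppb and Nppc, the enzymes Corin, Furin, Mme and Ide that process or degrade them, and the receptors Npr1, Npr2 and Npr3. These 10 genes were found by name among the 48607 loci of the deposited table, and the locus with the most counts was taken where a name occurred at several loci (3 genes). RNA of entire aortas was sequenced from mice on a Western diet for 12 weeks, and all of them lacked ApoE. By title, 5 libraries came from ApoE-/- mice (numbered 1 to 5) and 3 from NPRC-/-ApoE-/- mice (1 to 3), in which NPRC, the product of Npr3, carried a frameshift made by CRISPR in all cells of the body. The mutant line was made on a C57BL/6 background, and was crossed with ApoE-/- mice, which were bought as 8-week-old males. The age of the littermates that were sequenced was not given in the sources used here. The genotype entered for each sample contradicted the title in 4 libraries. ApoE-/- 4 and 5 were entered as Nprc-/-Apoe-/-, and NPRC-/-ApoE-/- 1 and 2 were entered as Apoe-/-. Groups were therefore formed by title, and each comparison was repeated by genotype entry, which again gave 5 against 3 libraries. The methods of the study name mice as the unit, with more NPRC-/-ApoE-/- mice than the 3 libraries analysed here, and the labels do not tie a library to a mouse, so the p-values measure the spread between these libraries. The total count was 62969165 to 86693276 per library.

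Natriuretic peptides are hormones that lower blood pressure and relax vascular smooth muscle. Atrial and B-type natriuretic peptide (Nppa, Nppb) come mainly from the heart, C-type natriuretic peptide (Nppc) is made largely by endothelium, and each is cut from a longer precursor, by corin for the atrial peptide and by furin for the C-type peptide. The receptors NPRA (Npr1) and NPRB (Npr2) are guanylyl cyclases that make cGMP when they bind a peptide, whereas NPRC (Npr3) has no cyclase, takes peptides up for degradation and couples to the inhibitory G protein Gi. Neprilysin (Mme) and insulin-degrading enzyme (Ide) split the peptides outside the receptors.

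The sequences below show where the mutation was aimed. The CRISPR targets lie in coding exon 1 of Npr3 on the minus strand of chromosome 15 (GRCm38, GENCODE M21), at chr15:11905594-11905614 and chr15:11905560-11905580. They start in codons 9 and 20 of ENSMUST00000066529, and capitals mark the motif next to the guide that Cas9 requires.
Npr3 CRISPR target 1: tctcggcgtgcgtgctgcTGG
Npr3 CRISPR target 2: ggctggcggcgcgagcagCGG
Both targets were present in ENSMUST00000066529 and ENSMUST00000228603 and absent from ENSMUST00000228489, which starts from other exons upstream.

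**Figure D1:**
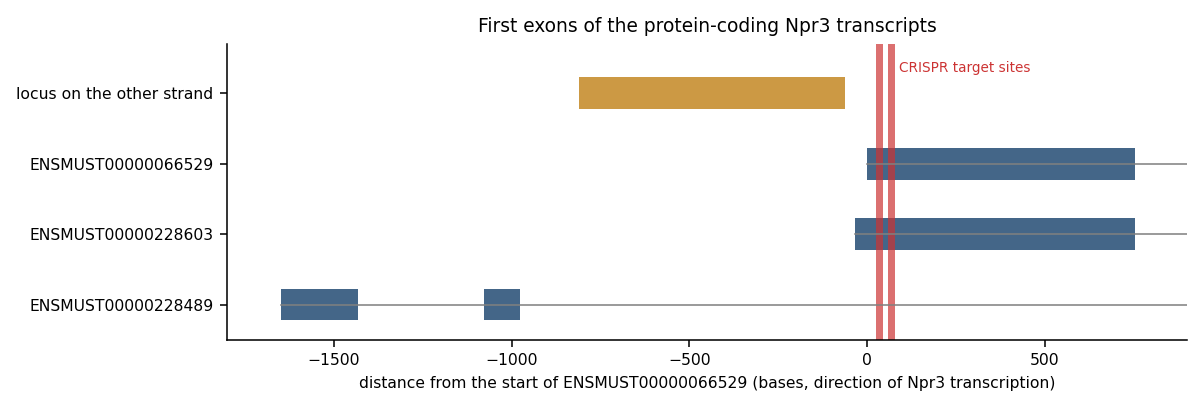
Map of the first exons of the 3 protein-coding Npr3 transcripts, drawn as distance in bases from the start of ENSMUST00000066529 along the direction of Npr3 transcription. Red bands are the CRISPR targets, which lie 25 to 79 bases into ENSMUST00000066529, and the orange bar is a separate locus on the other strand that ends 61 bases upstream of it.

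The aorta expressed the cyclase receptors at much higher levels than the peptides, on the scale of FPKM (fragments scaled to the length of the transcript and the size of the library). Over the 8 libraries the mean level was 16.05 FPKM for Npr1, 12.9 for Npr2 and 12.3 for Furin, and the ranges of these 3 genes overlapped. On this scale Furin exceeded Ide (3.47 FPKM) in all 8 libraries without overlap of their ranges, which was not so per kilobase of annotated exons. Mme (2.42 FPKM), Npr3 (1.20), Nppa (0.489), Corin (0.221), Nppc (0.122) and Nppb (0.0312) came next in this order, and each of these overlapped its neighbours in range. The summed level of the 3 peptides was 0.650 to 4.05% of that of the 3 receptors in a library. Passing 1 FPKM in at least 3 libraries was required for the main test, and 6 members passed it (Npr1, Npr2, Npr3, Furin, Mme and Ide). Nppa, Nppb, Nppc and Corin did not.

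**Figure D2:**
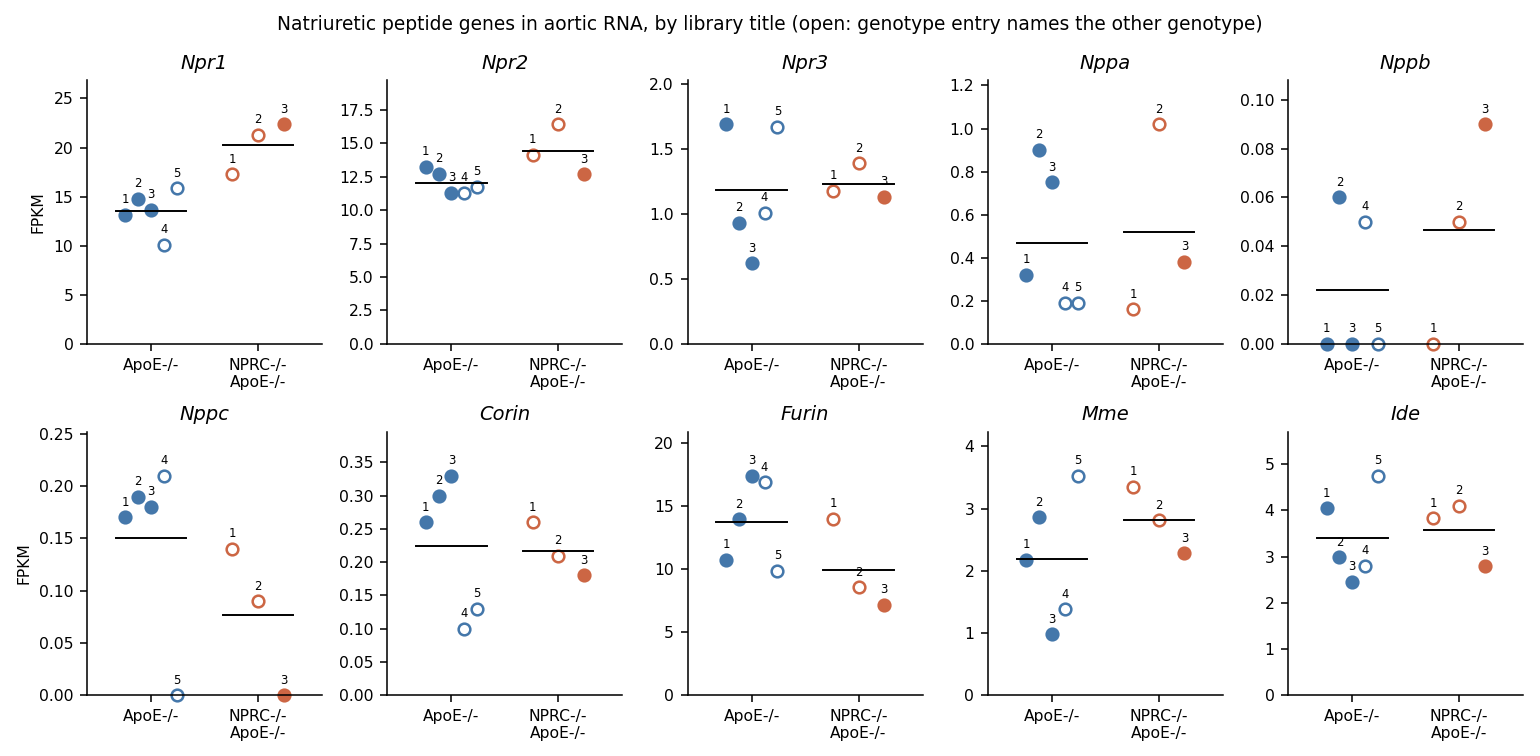
FPKM of each of the 10 genes (vertical axes, each from 0) in the libraries titled ApoE-/- (blue) and NPRC-/-ApoE-/- (orange), with library numbers beside the points and the group mean as a line; open points are libraries whose genotype entry names the other genotype. The 3 NPRC-/-ApoE-/- points of Npr1, from 17.3 to 22.4 FPKM, lie above all 5 ApoE-/- points, and for the other genes the FPKM ranges of the groups overlap.

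The clearance receptor gene Npr3 (ENSMUSG00000022206), the gene that was mutated, was transcribed in every library. Its level in the ApoE-/- libraries was 1.69 FPKM in number 1, 0.93 in 2, 0.62 in 3, 1.01 in 4 and 1.67 in 5. In the NPRC-/-ApoE-/- libraries it was 1.18 FPKM in number 1, 1.39 in 2 and 1.13 in 3. ApoE-/- libraries held both the highest and the lowest value, and the NPRC-/-ApoE-/- libraries lay between them (1.18 ± 0.476 against 1.23 ± 0.138 FPKM, SD, n = 5 and 3). The log2 fold change, NPRC-/-ApoE-/- over ApoE-/-, was 0.10 by title (95% interval -0.54 to 0.73, adjusted p = 0.90, edgeR, with the p-values adjusted over all loci tested). By genotype entry it was 0.16 (95% interval -0.48 to 0.79, adjusted p = 1.0 by the same edgeR test). Counts cover the whole locus, and the effect of the frameshift on the RNA level was not tested. The level of Npr3 was therefore not used to check which libraries carried the mutation. A separate locus named Npr3, on the plus strand from 11905700 to 11906450 of chromosome 15, held 12 to 81 counts in the ApoE-/- libraries and 10 to 39 in the NPRC-/-ApoE-/- libraries.

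Npr1 (ENSMUSG00000027931, chromosome 3, 90450591 to 90470959, minus strand), which encodes the cyclase receptor for atrial and B-type peptides, was higher in every NPRC-/-ApoE-/- library than in any ApoE-/- library. The ApoE-/- libraries 1 to 5 had 13.2, 14.8, 13.6, 10.1 and 15.8 FPKM. The NPRC-/-ApoE-/- libraries 1 to 3 had 17.3, 21.3 and 22.4 FPKM. By title the mean was 20.3 ± 2.69 FPKM against 13.5 ± 2.17 FPKM (SD, n = 3 and 5), and the log2 fold change was 0.62 (SE 0.16, 1.54-fold, unadjusted p = 0.0036, edgeR), while the adjusted p over all loci was 0.26 (edgeR). By genotype entry the groups overlapped and the log2 fold change was 0.04 (95% interval -0.57 to 0.66, adjusted p = 1.0, edgeR). By title the difference had an unadjusted p under 0.05 but did not pass adjustment over all loci tested (edgeR). A separate locus named Npr1 held 0.521 to 1.41% of the counts of Npr1. Its groups overlapped, with 59 to 191 counts in the ApoE-/- libraries and 138 to 198 in the NPRC-/-ApoE-/- libraries.

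Npr2 (ENSMUSG00000028469, chromosome 4, 43631935 to 43651244, plus strand), the cyclase receptor for C-type natriuretic peptide, differed less. Its level was 13.2, 12.7, 11.3, 11.3 and 11.7 FPKM in ApoE-/- 1 to 5. In NPRC-/-ApoE-/- 1 to 3 it was 14.1, 16.4 and 12.7 FPKM. NPRC-/-ApoE-/- 3 lay just below ApoE-/- 2 and 1 in FPKM, whereas on CPM (counts relative to the library size after TMM scaling) the groups did not overlap, with 64.2 to 73.7 CPM in ApoE-/- and 78.1 to 95.1 CPM in NPRC-/-ApoE-/- libraries. The log2 fold change was 0.28 by title (SE 0.11, unadjusted p = 0.034, adjusted p = 0.33, edgeR) and -0.15 by genotype entry (SE 0.14, adjusted p = 1.0, edgeR). The unadjusted p rose to 0.13 without NPRC-/-ApoE-/- 2 and to 0.068 without ApoE-/- 5 (edgeR).

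The study called a gene changed when its expression was over 2 times or under 0.5 times that of the other group at an unadjusted p under 0.05. By title 0 of the 6 members that passed the filter met it, while 3.47% of the 20506 loci tested did, and by genotype entry 0 of the 6 met it against 0.463% of loci. An unadjusted p under 0.05 by title was found for 2 of the 6 (Npr1 and Npr2) against 13.6% of all loci, and the CPM of the groups did not overlap for the same 2 against 7.42% of all loci. By genotype entry these were 0 of the 6, against 1.31% and 1.20% of all loci. None of these 6 and no locus (0 of 20506) had an adjusted p under 0.05 with edgeR under either label, whereas with DESeq2 and with limma's array quality weights Npr1 did by title (adjusted p = 0.030 and 0.042), as did 3.17% and 5.7% of all loci.

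**Figure D3:**
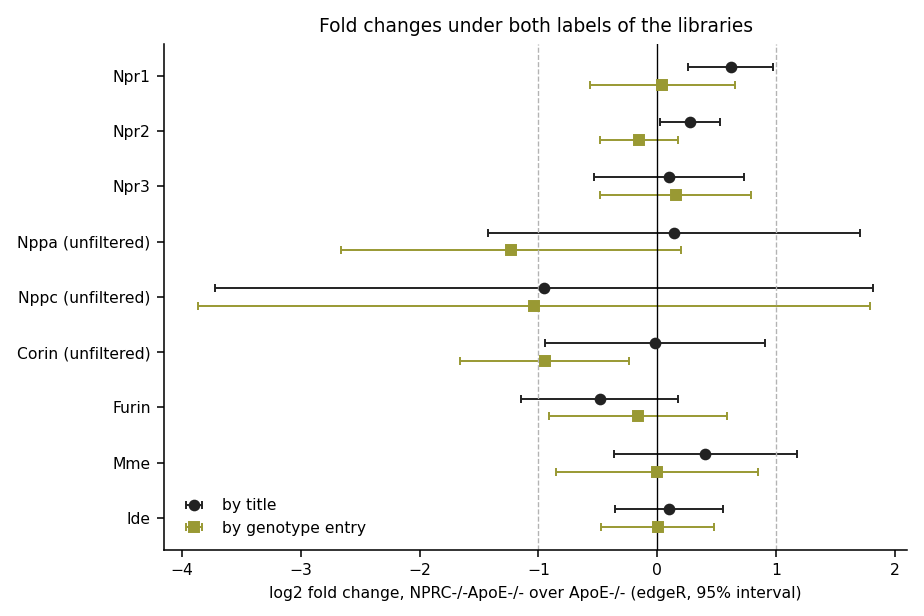
Log2 fold change with its 95% interval (horizontal axis) for 9 of the 10 genes by title (circles) and by genotype entry (squares); dashed lines mark the fold changes of 2 and 0.5, and genes marked unfiltered were fitted without the filter on low values. Npr1 (0.62) and Npr2 (0.28) have intervals above 0 by title only, and Corin (-0.95) has an interval below 0 by genotype entry only.

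The composition of the receptors is a value for each library on a scale per length. Npr3 made up 6.03, 3.28, 2.43, 4.51 and 5.71% of the summed FPKM of the 3 receptors in ApoE-/- 1 to 5. In NPRC-/-ApoE-/- 1 to 3 it made up 3.62, 3.56 and 3.12%. The NPRC-/-ApoE-/- libraries lay close together and within the range of the others, and the group means differed by -0.956 percentage points (two-sided exact permutation test, p = 0.393, n = 5 and 3, with 0.0357 as the lowest p that such groups allow). With the genotype entry the difference was 0.668 percentage points (exact permutation test, p = 0.5). The FPKM of Npr1 was 7.78 to 22.0 times that of Npr3 in a library, and that of Npr2 was 7.02 to 18.2 times that of Npr3. In FPKM Npr1 exceeded Npr2 in 6 of 8 libraries, with ratios of 0.893 to 1.35 in ApoE-/- and 1.22 to 1.77 in NPRC-/-ApoE-/- libraries.

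The low FPKM of Npr3 depended on the length assigned to its locus. Dividing the count by FPKM and by the library total gave the length behind each FPKM value. It was 44326 bases for Npr3, or 4.72 times the 9389 bases covered by its annotated exons. The same ratio was 3.35 for Ide and 2.33 for Npr1, between 1.23 and 1.38 for the other 7 genes, and 1.2 at the median of 1926 loci with a single annotated transcript. Counts per kilobase of annotated exons, a scale chosen after this was seen, gave Npr3 a share of 6.04 to 13.2% in ApoE-/- 2 to 5, 14.4% in ApoE-/- 1 and 7.28 to 8.78% in NPRC-/-ApoE-/- libraries, again with overlapping groups (exact permutation test, p = 0.321, n = 5 and 3). These counts cover the whole assembled locus, so the scale can overstate Npr3, Ide and Npr1, whose assembled lengths exceeded their annotated exons most. On this scale Npr3 stood above Mme in all 8 libraries. Npr1 exceeded Npr2 in all 8 libraries without overlap (24.8 to 55.2 against 13.8 to 20.4 CPM per kilobase), and Furin exceeded Ide in 5 of 8 libraries, with overlapping ranges. Between libraries the length behind the FPKM of Npr3 varied from 43653 to 45049 bases, and the fold changes rest on counts of the same assembled loci.

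**Figure D4:**
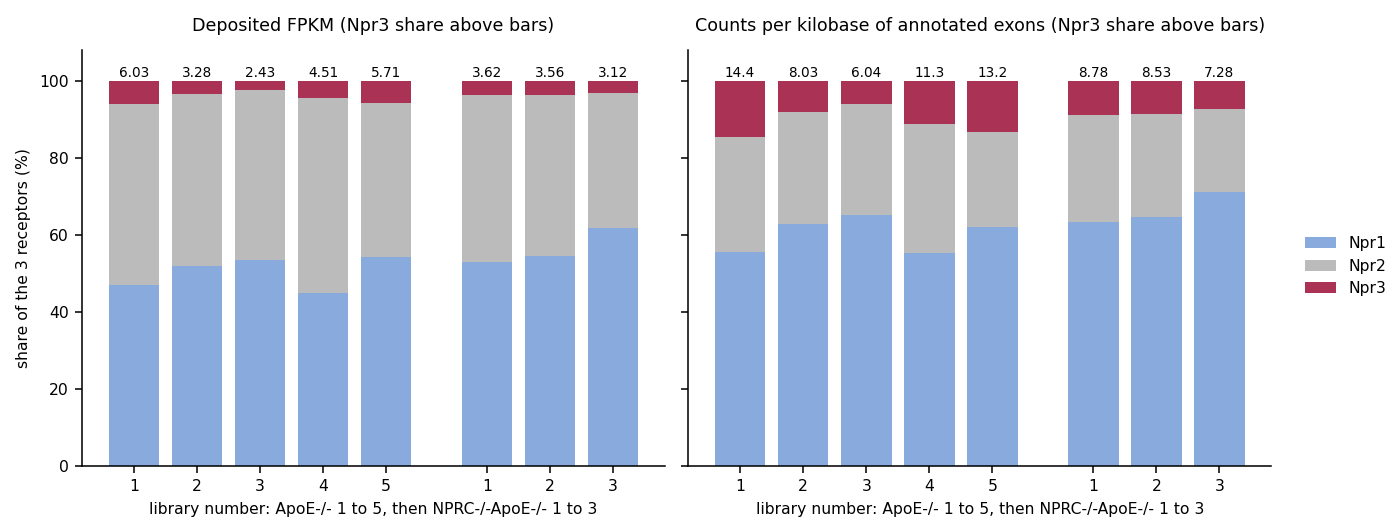
Shares of Npr1, Npr2 and Npr3 in the summed level of the 3 receptors (vertical axis, %) in each library, from FPKM (left) and from counts per kilobase of annotated exons (right), with the share of Npr3 above each bar. Npr3 takes 2.43 to 6.03% on the left and 6.04 to 14.4% on the right, and on both sides ApoE-/- libraries hold the lowest and the highest share.

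The peptide genes were close to the lower limit of detection. Nppa (ENSMUSG00000041616) had 0.32, 0.90, 0.75, 0.19 and 0.19 FPKM in ApoE-/- 1 to 5. It had 0.16, 1.02 and 0.38 FPKM in NPRC-/-ApoE-/- 1 to 3, from 15 to 68 counts per library over all 8. High and low libraries occurred under both titles, and the log2 fold change was 0.15 by title (95% interval -1.42 to 1.71) and -1.23 by genotype entry (95% interval -2.67 to 0.20), both from edgeR without the filter. Cardiomyocyte markers varied beside it. Myh6, the atrial myosin heavy chain, had 1.83, 2.46, 3.32, 0.0 and 0.43 FPKM in ApoE-/- 1 to 5 and 0.05, 1.03 and 0.07 FPKM in NPRC-/-ApoE-/- 1 to 3. The summed level of the 8 cardiomyocyte markers was 126 to 268 CPM in ApoE-/- and 180 to 377 CPM in NPRC-/-ApoE-/- libraries. The mean log2 CPM of the list was lower in NPRC-/-ApoE-/- libraries, at 0.706 against 1.47. On average 6 of the 8 markers were lower in NPRC-/-ApoE-/- and 2, Actn2 and Ryr2, were higher. The part of these markers in the level of Nppa was not tested.

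Nppc (ENSMUSG00000026241) had 18, 17, 19, 23 and 0 counts in ApoE-/- 1 to 5, or 0.17, 0.19, 0.18, 0.21 and 0.0 FPKM. In NPRC-/-ApoE-/- 1 to 3 it had 16, 8 and 0 counts, or 0.14, 0.09 and 0.0 FPKM. A library without a count was present under each title, and the log2 fold change was -0.95 by title and -1.03 by genotype entry, with 95% intervals from -3.73 to 1.82 and from -3.87 to 1.80 (edgeR without the filter). Nppb (ENSMUSG00000029019) had 0, 4, 0, 4 and 0 counts in ApoE-/- 1 to 5 and 0, 3 and 8 in NPRC-/-ApoE-/- 1 to 3. With 19 counts over all 8 libraries and a floor of 3 counts per library, no fold change is reported for Nppb. Whether Nppb differed between the groups was not judged at this depth. The floor covers counting error only, whereas the intervals of Nppc include the spread between libraries.

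Corin (ENSMUSG00000005220), the membrane protease that activates the atrial peptide precursor, had 0.26, 0.30, 0.33, 0.10 and 0.13 FPKM in ApoE-/- 1 to 5. NPRC-/-ApoE-/- 1 to 3 had 0.26, 0.21 and 0.18 FPKM. By title the NPRC-/-ApoE-/- libraries lay within the range of the others (log2 fold change -0.02, 95% interval -0.94 to 0.91, edgeR without the filter). By genotype entry the groups did not overlap, with 0.21 to 0.33 FPKM in Apoe-/- and 0.10 to 0.18 FPKM in Nprc-/-Apoe-/- entries, and the log2 fold change was -0.95 (SE 0.32, unadjusted p = 0.014, adjusted p = 1.0, edgeR). In the fit without the filter, 2.22% of 44689 loci had an unadjusted p under 0.05 by genotype entry. Among the 20506 loci past the filter, which Corin did not pass, the CPM of these groups did not overlap for 1.20%. Counts of Corin were 53 to 178 per library.

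Furin (ENSMUSG00000030530, chromosome 7, 80388585 to 80405431, minus strand), a proprotein convertase with many substrates beside natriuretic peptides, was among the most abundant members. It had 10.8, 14.0, 17.4, 16.9 and 9.89 FPKM in ApoE-/- 1 to 5. It had 14.0, 8.56 and 7.19 FPKM in NPRC-/-ApoE-/- 1 to 3. NPRC-/-ApoE-/- 2 and 3 were the lowest of all libraries, but NPRC-/-ApoE-/- 1 exceeded 3 ApoE-/- libraries, and the log2 fold change was -0.48 by title (SE 0.29, unadjusted p = 0.13, adjusted p = 0.48, edgeR; 0.031 before adjustment without NPRC-/-ApoE-/- 1) and -0.16 by genotype entry (SE 0.33, adjusted p = 1.0, edgeR). All 6 fibroblast markers and all 6 macrophage markers were also lower on average in the NPRC-/-ApoE-/- libraries. Their summed levels were 3014 to 9468 against 1863 to 4334 CPM for fibroblasts and 656 to 1255 against 525 to 774 CPM for macrophages, and their part in the level of Furin was not tested.

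The degrading enzymes differed by less than the spread between libraries. Neprilysin (Mme, ENSMUSG00000027820) had 2.18, 2.86, 0.98, 1.38 and 3.53 FPKM in ApoE-/- 1 to 5. It had 3.35, 2.81 and 2.28 FPKM in NPRC-/-ApoE-/- 1 to 3, inside that range, and the log2 fold change was 0.41 by title (SE 0.34, adjusted p = 0.61, edgeR) and -0.002 by genotype entry (SE 0.37, adjusted p = 1.0, edgeR). The brown adipocyte markers varied beside it, summing to 213 to 859 CPM in ApoE-/- and 629 to 868 CPM in NPRC-/-ApoE-/- libraries. The white adipocyte markers summed to 264 to 954 and 505 to 763 CPM. Mme and both lists were lowest in ApoE-/- 3. Mme was highest in ApoE-/- 5, the brown list in NPRC-/-ApoE-/- 2 and the white list in ApoE-/- 2. The part of these markers in the level of Mme was not tested. A locus named Mme on the opposite strand held 2.49 to 5.64% of the counts of Mme. Insulin-degrading enzyme (Ide, ENSMUSG00000056999) had 4.04, 2.98, 2.45, 2.80 and 4.75 FPKM in ApoE-/- 1 to 5 and 3.83, 4.09 and 2.79 FPKM in NPRC-/-ApoE-/- 1 to 3. ApoE-/- 5 was the highest and ApoE-/- 3 the lowest for both enzymes, and the log2 fold change of Ide was 0.10 by title (95% interval -0.36 to 0.55, edgeR) and 0.01 by genotype entry (95% interval -0.47 to 0.48, edgeR).

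Markers of the aortic wall and of adjoining tissues were examined since the members are made by different cells. Acta2, the actin of smooth muscle, had 849 to 1982 FPKM, Pecam1 of endothelium 18.5 to 24.7 FPKM and Ucp1 of brown fat 71.8 to 343 FPKM, so the tissue held arterial wall together with fat. Adipoq of white fat had 18.1 to 114 FPKM, and Cd68, which marks macrophages, shared its locus with other genes. All 8 smooth muscle markers were higher on average in NPRC-/-ApoE-/- libraries, and their summed level was 6089 to 7908 CPM in ApoE-/- and 7677, 12040 and 14750 CPM in NPRC-/-ApoE-/- 1 to 3, with the highest value in the same library as for Npr1. Of the 8 endothelial markers 2 were higher and 6 lower, with 1241 to 1489 against 1254 to 1319 CPM. The smooth muscle markers were on average higher in the same titled group as Npr1 and Npr2, as were all 5 brown adipocyte markers. Among the NPRC-/-ApoE-/- libraries Npr2 was lowest in number 3 (12.7 FPKM), where the smooth muscle level was highest. The part of these markers in the receptor levels was not tested. In RNA of whole tissue fewer cells of a type and less RNA per cell cannot be told apart. Of the 9 marker lists, none had a marker at 0 in every library, and the summed level did not overlap between the titled groups for 1, the Schwann cell list (22.0 to 33.1 against 13.4 to 14.9 CPM). All 5 skeletal muscle markers were higher on average in NPRC-/-ApoE-/- libraries, with a summed level of 26.4 to 34.2 CPM there, 31.1 and 38.0 CPM in ApoE-/- 1 and 5 and 2.17 to 2.94 CPM in ApoE-/- 2 to 4. ApoE-/- 1 and 5 were also the highest libraries for Npr3, and the part of skeletal muscle in it was not tested.

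Loci whose profile over the 8 libraries was most like that of each receptor were found by the root mean square difference of log2 CPM centred on the mean of the locus, among 18478 tested loci with a single name. For Npr1 these were Fblim1 (0.09), Rfx2 (0.10) and Kif13a (0.10), while Npr1 itself varied by 0.35 about its mean. Npr2 varied by 0.16, and the nearest loci were Phc1 (0.06), Galnt2 (0.07) and Shld1 (0.07). Npr3 varied by 0.40, and its nearest were Rab12 (0.13), Mettl16 (0.14) and Gm37946 (0.14). These are descriptions of 8 libraries that share their scaling.

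A list of 34 other genes of the pathway covered convertases, peptidases, cGMP kinases and substrates, phosphodiesterases that split cGMP, Gi subunits, a phospholipase and adenylate cyclases, several of which Gi inhibits. Of these, 25 passed the filter, and by title 1 met the criterion of the study, against 3.47% of all loci, and it was lower. Among the 25, 14 were higher and 11 lower, with a median log2 fold change of 0.06 against -0.01 over all loci tested, and 6 had an unadjusted p under 0.05 (4 higher and 2 lower) against 13.6% of all loci. The 1 gene past the criterion was Dpp4, a dipeptidyl peptidase that trims B-type natriuretic peptide, at 1.14, 1.56, 1.01, 0.72 and 1.20 FPKM in ApoE-/- 1 to 5 and 0.64, 0.47 and 0.50 FPKM in NPRC-/-ApoE-/- 1 to 3. Its groups did not overlap, while the CPM of the groups did not overlap for 7.42% of all loci. The log2 fold change of Dpp4 was -1.02 (SE 0.23, unadjusted p = 0.0016, adjusted p = 0.22, edgeR). Since this lies at the limit of a fold change of 0.5, Dpp4 no longer met the criterion without ApoE-/- 2 (-0.89), NPRC-/-ApoE-/- 2 (-0.91) or NPRC-/-ApoE-/- 3 (-1.0).

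The smallest p-values of the list belonged to Adcy5 and Adcy6, adenylate cyclases of closely related structure that Gi inhibits. Adcy5 had 25.1, 24.2, 29.8, 22.0 and 29.1 FPKM in ApoE-/- 1 to 5 and 43.2, 49.8 and 52.5 FPKM in NPRC-/-ApoE-/- 1 to 3. Adcy6 had 15.7, 18.3, 14.2, 14.5 and 18.0 FPKM in ApoE-/- 1 to 5 and 22.9, 25.2 and 21.7 FPKM in NPRC-/-ApoE-/- 1 to 3. Neither overlapped between the titled groups, while the CPM of the groups did not overlap for 7.42% of all loci. The log2 fold changes were 0.92 for Adcy5 (unadjusted p = 0.00034, adjusted p = 0.19, edgeR) and 0.55 for Adcy6 (unadjusted p = 0.00079, adjusted p = 0.22, edgeR). By genotype entry they were 0.05 and -0.06, and that of Dpp4 was -0.24 (adjusted p = 1.0 for each, edgeR). The other 3 genes with an unadjusted p under 0.05, named after their values were seen, were Mrvi1, a substrate of cGMP-dependent kinase, at 0.87, the phosphodiesterase genes Pde3a at 0.51 and Pde1b at -0.79. The higher genes of these 6 lay beside smooth muscle markers of 7677 to 14750 CPM in NPRC-/-ApoE-/- against 6089 to 7908 CPM in ApoE-/-. On average 8 of 8 smooth muscle, 5 of 5 brown adipocyte and 5 of 5 skeletal muscle markers were higher in NPRC-/-ApoE-/-. The lower genes lay beside fibroblast (6 of 6), macrophage (6 of 6) and Schwann cell markers (4 of 4) that were lower on average. The part of any of these markers in the 6 genes was not tested. By genotype entry 1 gene met the criterion, against 0.463% of all loci, namely Adcy9 at -1.82 (unadjusted p = 0.027, adjusted p = 1.0, edgeR). Adcy9 ranged from 0.39 to 3.91 FPKM over the libraries, and its log2 fold change by title was 0.36. Prkg1, the cGMP-dependent kinase of smooth muscle, had at the largest of its 28 loci a log2 fold change of 0.13 by title, and Pde5a, the cGMP phosphodiesterase, 0.16 (adjusted p over 0.05 for both, edgeR).

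**Figure D5:**
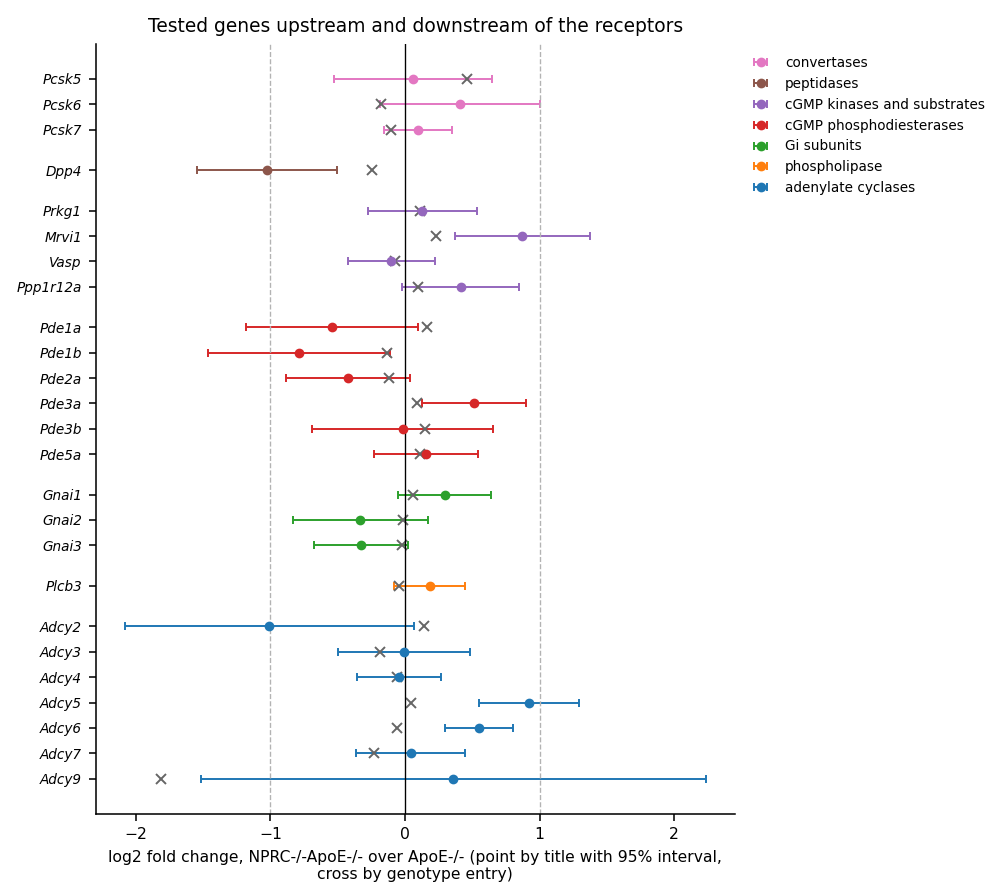
Log2 fold change (horizontal axis) of the 25 tested genes of the pathway list, grouped by class, as points with 95% intervals by title and as crosses by genotype entry; dashed lines mark the fold changes of 2 and 0.5. Adcy5 (0.92), Mrvi1 (0.87), Adcy6 (0.55) and Pde3a (0.51) lie above 0 with their intervals by title and Dpp4 (-1.02) and Pde1b (-0.79) below it, and the crosses of all 6 lie nearer to 0.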

How the data were processed

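Poly(A) RNA of whole aortas was sequenced by the study with a library preparation that marks strand, and whether strand was used in counting is not given in the sources used here. The authors trimmed reads (cutadapt 1.9 and FastQC per the labels), mapped them with HISAT2 to GRCm38 and assembled loci with StringTie. They deposited counts, not normalized, and FPKM values, which the authors scaled to transcript length and library size. Value columns that belong to no sample numbered 0.

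Counts of loci that reached 1 FPKM in 3 or more libraries were tested with edgeR 4.0.16 in R 4.3.3 (TMM, quasi-likelihood test, Benjamini-Hochberg adjustment over all loci tested), and DESeq2 1.42.0 and limma 3.58.1 were alternatives. Members under the filter were fitted without it. Fold changes are NPRC-/-ApoE-/- over ApoE-/-. Single values were compared with exact permutation tests (scipy 1.17.1). CPM are TMM-scaled, with a prior count of 2 on the log2 scale. The test was tested on simulated data.

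Members and gene lists were chosen with earlier results of these data known. All 10 members were named, with pathway genes past the criterion, the 2 with the smallest p, the 3 loci most like each receptor, and defining markers. Prkg1 and Pde5a were added after their values were seen. Pathway loci can be split or shared: Pcsk6, Pde2a and Pde3a share theirs with other genes. Alternatives covered the label, test, pseudocount, scaling, filter, replicate block and each library left out. Sites within reads and the other assays of the study were not analysed here.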

Additional observations from a re-analysis of the deposited data

Results flagged for a closer look

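Among the 5 libraries titled ApoE-/-, the library ApoE-/- 5 lay far from the others for Nppc, with 0.0 FPKM and 0 counts against 17 to 23 counts in the other 4. ApoE-/- 5 was entered as Nprc-/-Apoe-/-, as was NPRC-/-ApoE-/- 3, the other library with 0 counts. ApoE-/- 4, the remaining library with that entry, had 23 counts, the most of any library. The 5 libraries entered as Apoe-/- had 8 to 19 counts. ApoE-/- 5 was found by the gap between it and its nearest neighbour, which exceeded the critical share of the range, 0.71 for 5 libraries. Of 22 groups of 5 values searched (the 10 genes and the Npr3 share, by title and by genotype entry), this was the only one past that limit, and chance gives about 1 in 20 groups.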

How the results depend on the processing

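By genotype entry the log2 fold change reversed for Nppa (-1.23), Mme (-0.002) and Npr2 (-0.15), and the difference in Npr3 share reversed to 0.668 percentage points. Npr1 kept its direction in all 19 alternatives. It had an adjusted p under 0.05 with DESeq2 (log2 fold change 0.63) and with limma's array quality weights (log2 fold change 0.63). Thus 1 member did in each, against 3.17% and 5.7% of all loci. The number of members with an unadjusted p under 0.05 was 0 by genotype entry and 1 with either pseudocount, with the replicate block, and in those 6 libraries with no block. It was 3 with array weights and 3 without NPRC-/-ApoE-/- 1, where Furin joined Npr1 and Npr2 (adjusted p = 0.092 with limma and 0.19 with edgeR). Leaving out each library in turn gave 1 to 3 members, 1 without ApoE-/- 5 and 1 without NPRC-/-ApoE-/- 2. The log2 fold change then ranged from 0.52 to 0.74 for Npr1, 0.21 to 0.34 for Npr2, -0.04 to 0.24 for Npr3, -0.70 to 0.58 for Nppa, -0.20 to 0.21 for Corin, -1.69 to -0.35 for Nppc, -0.79 to -0.31 for Furin, 0.24 to 0.62 for Mme and 0.02 to 0.23 for Ide, and the difference in Npr3 share from -1.45 to -0.548. Npr3 was below 0 only without ApoE-/- 3 (-0.037). Nppa was below 0 without ApoE-/- 4 (-0.04), ApoE-/- 5 (-0.06) or NPRC-/-ApoE-/- 2 (-0.70), and Corin above 0 without ApoE-/- 1 (0.02), 2 (0.09) or 3 (0.21) or NPRC-/-ApoE-/- 2 (0.05) or 3 (0.08) and with a pseudocount of 0.1 (0.024). The number of pathway genes past the criterion was 2 with DESeq2, 0 with limma under either pseudocount and with array weights, and 0 to 5 with a library left out, 5 without NPRC-/-ApoE-/- 1. Deviations from the group means in libraries of the same replicate number had correlations of -0.27, -0.13 and -0.01. Libraries of different numbers were not set beside them, so these values cannot decide whether the numbers pair the libraries. With the replicate block Nppa was -0.55, and those 6 libraries gave -0.33 with no block. The blocked test of the Npr3 share says nothing on its stability, since 3 pairs give no p below 0.25. In the 4 libraries whose labels agree, NPRC-/-ApoE-/- 3 alone stood against ApoE-/- 1 to 3, so each value rests on 1 library of its group. This alternative was chosen after seeing the data and has no test. Npr1 was 0.78, Npr2 0.12, Npr3 0.27, Mme 0.40, Ide -0.062, Furin -0.85, Nppa -0.54 and Corin -0.58. Npr3, Mme and Ide have no value with a mean of at least 5 FPKM, since they are below it. The cause of these changes was not tested, and the depth limits statements on Nppa, Nppb, Nppc and Corin.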
